A study of Mus musculus with 5 samples.

Results

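The regions described here carried a listed peak of histone H2A ubiquitinated at lysine 119 (H2AK119Ub) in non-transduced haematopoietic progenitors and in none of the oncogene-transduced cultures of the same study. They were chosen by the presence of peaks: the 4 deposited peak lists were merged where peaks overlapped or touched, and a region was kept when it held a peak of the non-transduced list and of no other list. This gave 309 regions, 12.0% of all 2575 merged regions and 24.2% of the 1275 regions with a non-transduced peak. Each of the 309 consisted of exactly 1 non-transduced peak, so they were also 23.2% of the 1332 peaks of that list. These counts follow from the choice and are a description of the lists.

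All libraries came from lineage-negative progenitors (labelled Lin- HSC) of C57BL/6 bone marrow, enriched with a commercial kit and kept in liquid culture. The genotype was the same throughout: R26CreERT2, a Cre recombinase that tamoxifen activates, together with Ring1a-/-, Ring1bf/f and Cdkn2a-/-. Whether Ring1b had been deleted, how many mice were pooled and how long the cells were cultured are not stated in the labels. One culture was not transduced, and the others were transduced with HOXA9, PML-RARa or MLL-AF9. There was 1 library per group and no library of cells given a vector without an oncogene, so transduction and oncogene cannot be told apart and no difference below could be tested.

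H2AK119Ub is placed by Polycomb repressive complex 1 (PRC1), whose RING1A or RING1B subunit is the ubiquitin ligase. The mark lies over broad domains, often around developmental regulators that are silent in the cell type at hand, and helps to recruit further Polycomb complexes. HOXA9 is a homeobox factor that keeps progenitors immature, PML-RARa is the fusion protein of acute promyelocytic leukaemia, and MLL-AF9 is a fusion protein of acute myeloid leukaemia. With Cdkn2a lost, the cells lack the cell cycle inhibitors through which the loss of PRC1 halts many cell types. The comparison asks where the mark lay in non-transduced progenitors and in those given each oncogene, and the 309 regions are those where the non-transduced culture alone had a listed peak.

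The lists held 620 (HOXA9) to 1772 (PML-RARa) peaks over 13.4 to 35.7 Mb, with lowest scores of 700 to 703. They gave no read counts, so depth was unknown. A region outside an oncogene list therefore had no listed peak there, which does not show that the mark was missing. Genes were not assigned and no bases are printed, because the positions are mm9 and no table of that build was used here.

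The absence of a partner was uneven over the oncogene lists. Of the 1275 regions with a non-transduced peak, 68.8% had no HOXA9 peak, 42.8% no MLL-AF9 peak and 36.4% no PML-RARa peak. The longest list decided most: without the PML-RARa list 499 regions stood alone, without MLL-AF9 428 and without HOXA9 327. The HOXA9 list thus removed 18 further non-transduced peaks, PML-RARa 190 and MLL-AF9 119.

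The 309 peaks covered 6.30 Mb, 20.0% of the 31.4 Mb of the non-transduced list. Their widths ran from 1.06 kb to 108 kb, with a median of 16.0 kb (exact 95% interval of the median, 14.2 to 17.7) and quartiles of 9.11 and 26.1 kb. Non-transduced peaks in regions shared with 1 other list had a median width of 16.6 kb (14.9 to 18.2), those shared with 2 lists 19.2 kb (16.9 to 20.9) and those shared with all 3 lists 22.8 kb (20.8 to 24.3). The peaks listed alone were thus close in width to those with 1 partner, and the median was larger with each further list. Narrow peaks were common among them: 92 of the 309 (29.8%, exact interval 24.7 to 35.2) were under 10 kb, against 171 of 1023 shared peaks (16.7%, 14.5 to 19.1). Peaks over 50 kb were present as well, 15 of 309 (4.85%, 2.74 to 7.88) against 93 of 1023 (9.09%, 7.40 to 11.0). Such intervals reflect counting error within 1 library, as if peaks were independent of each other, and the differences were not tested, because the values come from the list that chose the regions. Any overlap made a peak shared, and a wider peak has more room for one. Width is therefore not independent of the rule.

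Scores, on a scale of the authors not defined in the sources used here, lay mostly low in the non-transduced list's range of 700 to 2107. They ran from 703 to 1628 with a median of 839 (831 to 844), and quartiles of 766 and 940. The median was 907 (863 to 928) for peaks shared with 1 list, 974 (940 to 1008) with 2 lists and 1016 (1006 to 1080) with 3 lists. Scores under 800 belonged to 110 of the 309 peaks (35.6%) and to 177 of the 1023 shared ones (17.3%), and scores over 1000 to 44 (14.2%) and 459 (44.9%). Within the 309, width and score were hardly related (Spearman rho 0.06 over 309 peaks of 1 library), whereas over the 1023 shared peaks rho was 0.25. The 15 peaks over 50 kb had scores from 729 to 1329 with a median of 886, so the wide ones were found over most of the range of scores.

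**Figure D1:**
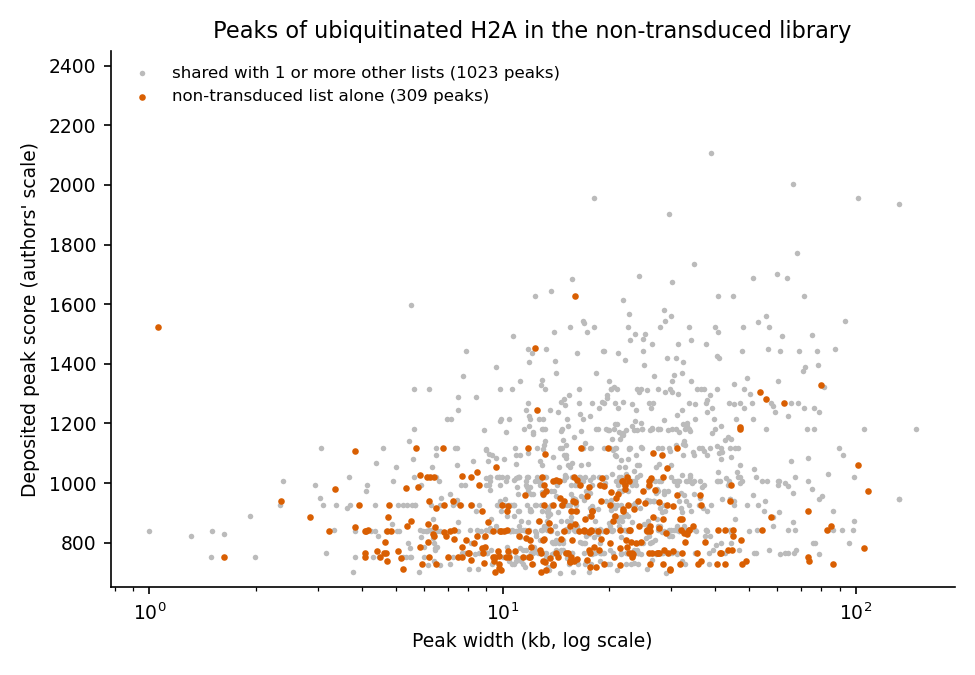
Width (kb, log scale) and deposited score of every peak of the non-transduced list, with the 309 peaks listed there alone in orange and the 1023 shared with at least 1 other list in grey. The orange points lie mostly under a score of 1000 at every width, with 4 of them at 1329 or more.

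The share of peaks standing alone was lower at higher scores. The lowest scores of the lists were 700 to 703, and a domain near that limit in the non-transduced list can go unlisted elsewhere. Score, like width, is therefore not independent of the rule, here and in the medians above. The non-transduced list was divided into 4 classes of 333 peaks each. In the class with the lowest scores (700 to 824) 132 peaks were alone (39.6%, interval 34.3 to 45.1), followed by 90 (27.0%, 22.3 to 32.1) and 67 (20.1%, 15.9 to 24.8). In the class with the highest scores (1093 to 2107) 20 of 333 were alone (6.01%, 3.71 to 9.12). By width, which is not independent of the rule, the share went from 30.9% (26.0 to 36.2) in the narrowest class to 16.5% (12.7 to 20.9) in the widest. This was a smaller range than by score. Among peaks of the lowest score class, 49 of 106 (46.2%, 36.5 to 56.2) in the narrowest width class and 24 of 58 (41.4%, 28.6 to 55.1) in the widest stood alone. Among those of the highest score class the counts were 4 of 37 (10.8%) and 7 of 134 (5.22%). Of the 101 best-scoring peaks, including ties, 4 were alone.

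**Figure D2:**
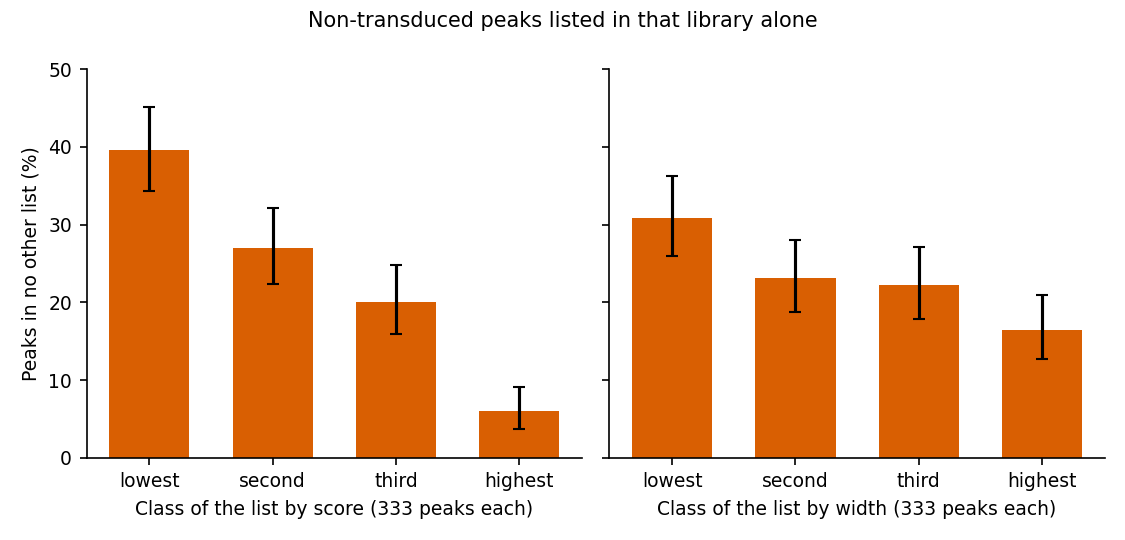
Percentage of non-transduced peaks with no peak of another list in their region, for 4 classes of 333 peaks by score (left) and by width (right); bars are percentages and whiskers exact 95% binomial intervals. The share fell from 39.6% to 6.01% over the score classes and from 30.9% to 16.5% over the width classes.

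The 4 peaks of the best 101 lay on chromosomes 2 and 6. The highest score of all 309, 1628 (rank 16 of the list), belonged to a peak of 16.0 kb at chr2:156599367-156615407. The nearest listed peaks lay 147 kb away in PML-RARa and in MLL-AF9 and 340 kb away in HOXA9, while the nearest non-transduced peak, itself listed alone, was 53.0 kb away. A pair of the others were neighbours: chr6:125260686-125340191, 79.5 kb wide with a score of 1329, and chr6:125367746-125368803, the narrowest of the 309 at 1.06 kb with a score of 1522. For this pair the nearest peaks of the oncogene lists were 435 kb (PML-RARa), 443 kb (MLL-AF9) and 536 kb (HOXA9) from the wider peak, so that the whole stretch was without a listed peak of any transduced culture. The remaining one, chr6:87529444-87541821 (12.4 kb, score 1452, rank 55), differed from these in its surroundings. All 3 oncogene lists had a peak 31.4 to 31.8 kb away from it, in a region without a non-transduced peak.

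The next scores fell on wide peaks. chr9:42940002-42993681 (53.7 kb, score 1306) had a PML-RARa peak at 3.69 kb and an MLL-AF9 peak at 14.7 kb from its edge, but its nearest HOXA9 peak at 188 kb. chr7:29836942-29892666 (55.7 kb, score 1281) was farther from every list, with 171 kb to PML-RARa, 419 kb to MLL-AF9 and 746 kb to HOXA9. chr1:136082793-136145443 (62.7 kb, score 1268) had its nearest MLL-AF9 peak at 48.2 kb and its nearest HOXA9 peak at 831 kb. Distances to the oncogene lists thus varied widely among the high-scoring peaks. Further down, chr4:124568048-124580572 (12.5 kb, score 1245) lay 1.66 kb from an MLL-AF9 peak, and chr11:120863308-120910443 (47.1 kb, score 1189) and chr14:71276478-71323664 (47.2 kb, score 1180) lay 213 and 228 kb from the nearest oncogene-library peak. The other 5 of the best 15, on chromosomes 2, 3, 11, 12 and 17, had scores of 1116 to 1118 and widths of 5.67 to 19.9 kb. At chr3:93246413-93252086 (5.67 kb, score 1118) the nearest peak of any other list, a HOXA9 peak, was 1358 kb away.

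The 5 widest peaks listed alone had scores from 729 to 1061. The widest was chr7:151770085-151878385, of 108 kb and score 974, the fifth widest of the non-transduced list. It was followed by chr7:151344935-151450432 (105 kb, score 782), chr2:166417575-166519255 (102 kb, score 1061), chr4:136457938-136543984 (86.0 kb, score 729) and chr8:12881353-12966484 (85.1 kb, score 856). For 3 of these 5 the nearest oncogene-library peak was 38.0 to 281 kb away. The chr2 peak ended 2.71 kb from an MLL-AF9 peak and the chr8 peak 0.490 kb from a PML-RARa peak. After the chr6 peak of 1.06 kb, the narrowest were chr10:39646018-39647647 (1.63 kb, score 751), chr18:64490951-64493312 (2.36 kb, score 940), chr4:136331137-136333985 (2.85 kb, score 885) and chr7:135333731-135336946 (3.22 kb, score 839). The one on chromosome 18 lay within 1 kb of a peak of each of the 3 oncogene lists (0.927 to 0.984 kb), at the edge of a region shared by all 4 libraries. The lowest scores were 703, at chr1:134434275-134447123 and chr11:119162742-119172244, then 707 at chr15:97733017-97746333 and 708 at chr14:34158448-34188163 and chr2:156307989-156317884.

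Most of the 309 regions were not at the margin of an oncogene-library peak. The distance to the nearest peak of any other list ran from 292 bp to 19.6 Mb with a median of 63.4 kb (48.4 to 83.1). By list the median was 97.6 kb for PML-RARa (74.3 to 140), 136 kb for MLL-AF9 (105 to 167) and 365 kb for HOXA9 (306 to 458), an order that is also that of the list lengths. Other non-transduced regions without the same list, but with a peak of another, had medians of 99.2 kb (155 regions), 144 kb (237 regions) and 405 kb (568 regions), each within the interval given for the regions listed alone. In distance to a given list the 309 were thus near the other regions missing from it, which was not tested. Within 10 kb of a peak of any other list lay 50 of the 309 (16.2%, 12.3 to 20.8) and within 1 kb 10 of them. No oncogene library had a peak within 100 kb for 127 regions (41.1%), and all 3 had one within that distance for 52 (16.8%).

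**Figure D3:**
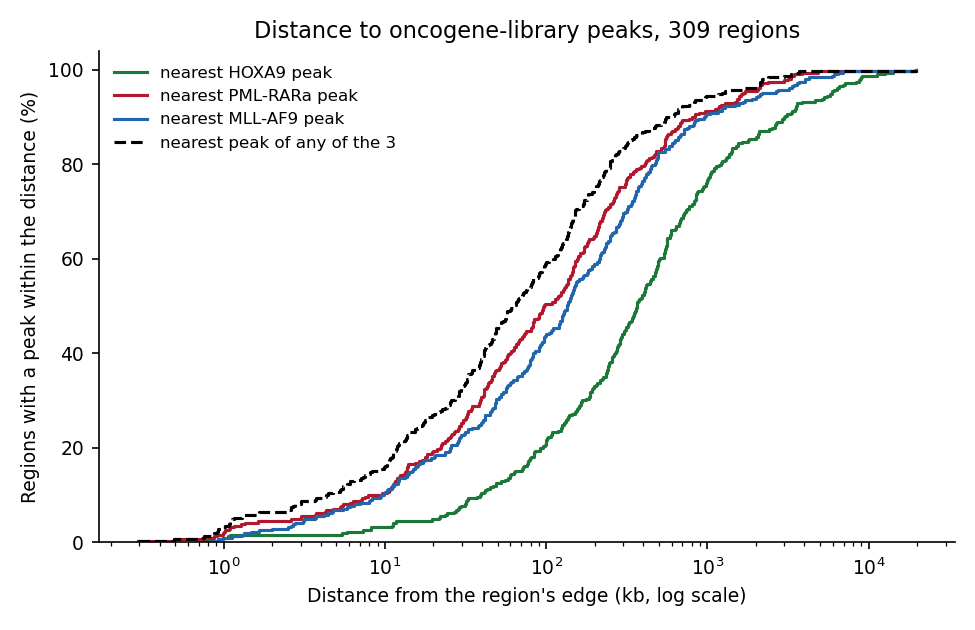
Cumulative percentage of the 309 regions (y axis) that have a listed peak within a given distance of their edge (x axis, kb, log scale), for each oncogene list and for the nearest of the 3 (dashed). The curves reach 50% of the regions at 97.6 kb for PML-RARa, 136 kb for MLL-AF9, 365 kb for HOXA9 and 63.4 kb for the nearest of any.

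At the boundary of the rule, the regions just inside it were separated from an oncogene-library peak by less than 1 kb. At chr11:96221293-96237396 (16.1 kb, score 907) 292 bp lay between the non-transduced peak and a PML-RARa peak. The next gaps were 490 bp at chr8:12881353-12966484 (PML-RARa), 706 bp at chr5:143187674-143199325 (HOXA9), 755 bp at chr5:24018029-24026520 (PML-RARa) and 855 bp at chr11:61241091-61259762 (MLL-AF9). Just outside it, the smallest shared length was 743 bp, 1.73% of a non-transduced peak of 43.1 kb in the region chr11:101903943-101973795, with MLL-AF9. The next smallest shared lengths (998 to 1842 bp, in regions on chromosomes 1, 2 and 6) mostly belonged to peaks so narrow that the shared part was the whole of them. Of the 303 regions shared with exactly 1 other list, 2 had an overlap under 10% of the non-transduced peak. At the other extreme, chrX:70877193-70890132 (12.9 kb, score 1022) was 19.6 Mb from any oncogene-library peak. chr13:69674509-69690131 (score 907), chr8:17532275-17536379 (score 839) and chr5:89313188-89320881 (score 787) were 3.70, 3.43 and 3.31 Mb away, and chr11:11937742-11960253 (score 787) 2.98 Mb.

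What lay nearest differed among the regions. Of the 140 regions with an oncogene-library peak within 50 kb, 82 (58.6%) had it in a region that also held a non-transduced peak, that is, beside a domain listed in the non-transduced library as well. The other 58 had it in a region with no non-transduced peak, of which 43 were of 1 oncogene list, 12 of 2 and 3 of all 3. Of all 2575 merged regions, all but the 309 held an oncogene-library peak, and 966 of those also held a non-transduced peak. Only regions with an oncogene-library peak can be nearest, so the 82 of 140 is to be read beside these counts. Most regions without a non-transduced peak were likewise of 1 oncogene list: 580 of PML-RARa, 324 of MLL-AF9 and 46 of HOXA9. The 43 of 58 therefore does not set these surroundings apart, and neither split was tested. The nearest list was PML-RARa for 176 regions (57.0%), MLL-AF9 for 112 (36.2%) and HOXA9 for 21 (6.80%), again in the order of list length.

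The regions also lay beside further non-transduced peaks. The nearest other non-transduced region was a median of 82.3 kb away (64.1 to 125), compared with 142 kb (118 to 154) for regions shared with another list. It was within 5 kb for 49 of 309 (15.9%, 12.0 to 20.4) and for 106 of 966 shared regions (11.0%, 9.07 to 13.1). The units are unlike: the 966 shared regions held 1023 non-transduced peaks, and peaks joined in 1 region did not count as neighbours. Both contrasts therefore depend in part on the merging. That neighbour was itself listed alone for 92 of the 309 (29.8%), against 24.2% of all non-transduced regions, and had peaks of all 3 oncogene lists for 76 (24.6%, against 24.2%). For 29 of the 49 with a neighbour within 5 kb the neighbour was shared. Neither difference was tested.

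In 10 places 2 peaks of the 309 followed each other with 814 to 2078 bp between them. The longest such stretch, of 151 kb at chr7:151344935-151496198, joined peaks of 105 and 44.9 kb with scores of 782 and 824 across 836 bp. At chr2:27766028-27877928 peaks of 37.5 and 73.6 kb made a stretch of 112 kb, and at chr7:152298685-152395767 peaks of 73.4 and 22.6 kb one of 97.1 kb. At chr9:42940002-43029219 the high-scoring peak of 53.7 kb was followed after 822 bp by one of 34.7 kb with a score of 856. Close pairs were not confined to the 309: 71 of the 112 pairs of non-transduced peaks within 5 kb held no peak listed alone, and 31 held 1.

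Several stretches of the genome held many of the regions. With neighbours up to 1 Mb apart joined, 203 of the 309 (65.7%) fell into groups of at least 2, in 68 groups, and 106 were single. The same joining was not done for other parts of the list, so this share has no background. Closeness was general: another non-transduced region lay within 1 Mb of 278 of the 309 (90.0%) and of 835 of the 966 shared regions (86.4%). The 8 regions at chr1:133494033-135073289 covered 120 kb with widths of 4.09 to 22.0 kb and scores of 703 to 1022. The stretch held 11 non-transduced regions in all, so 3 were shared, and the oncogene lists had 2 (HOXA9), 5 (PML-RARa) and 2 (MLL-AF9) peaks in it. Such stretches were named for holding the most of the regions and end at them. The number of shared regions inside each therefore depends on that choice. Another 8 regions lay at chr15:83349291-85583453, with scores of 727 to 940. There the oncogene lists were not short of peaks, with 4, 7 and 8 in the same order, beside 13 non-transduced regions.

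A pair of groups held 7 regions each. At chr2:155891841-157274398 the 7 regions covered 171 kb and included the highest score of the 309. The lists of HOXA9, PML-RARa and MLL-AF9 had 1, 3 and 2 peaks in that stretch. At chr7:151344935-152431299 the 7 regions covered 416 kb of a stretch of 1086 kb, the largest covered length of these 4 groups, with widths of 17.6 to 108 kb and scores of 782 to 1022. Oncogene-library peaks covered 103 kb (HOXA9), 241 kb (PML-RARa) and 196 kb (MLL-AF9) of the same stretch, at other places. Of the 9 non-transduced regions in it, 2 were shared.

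**Figure D4:**
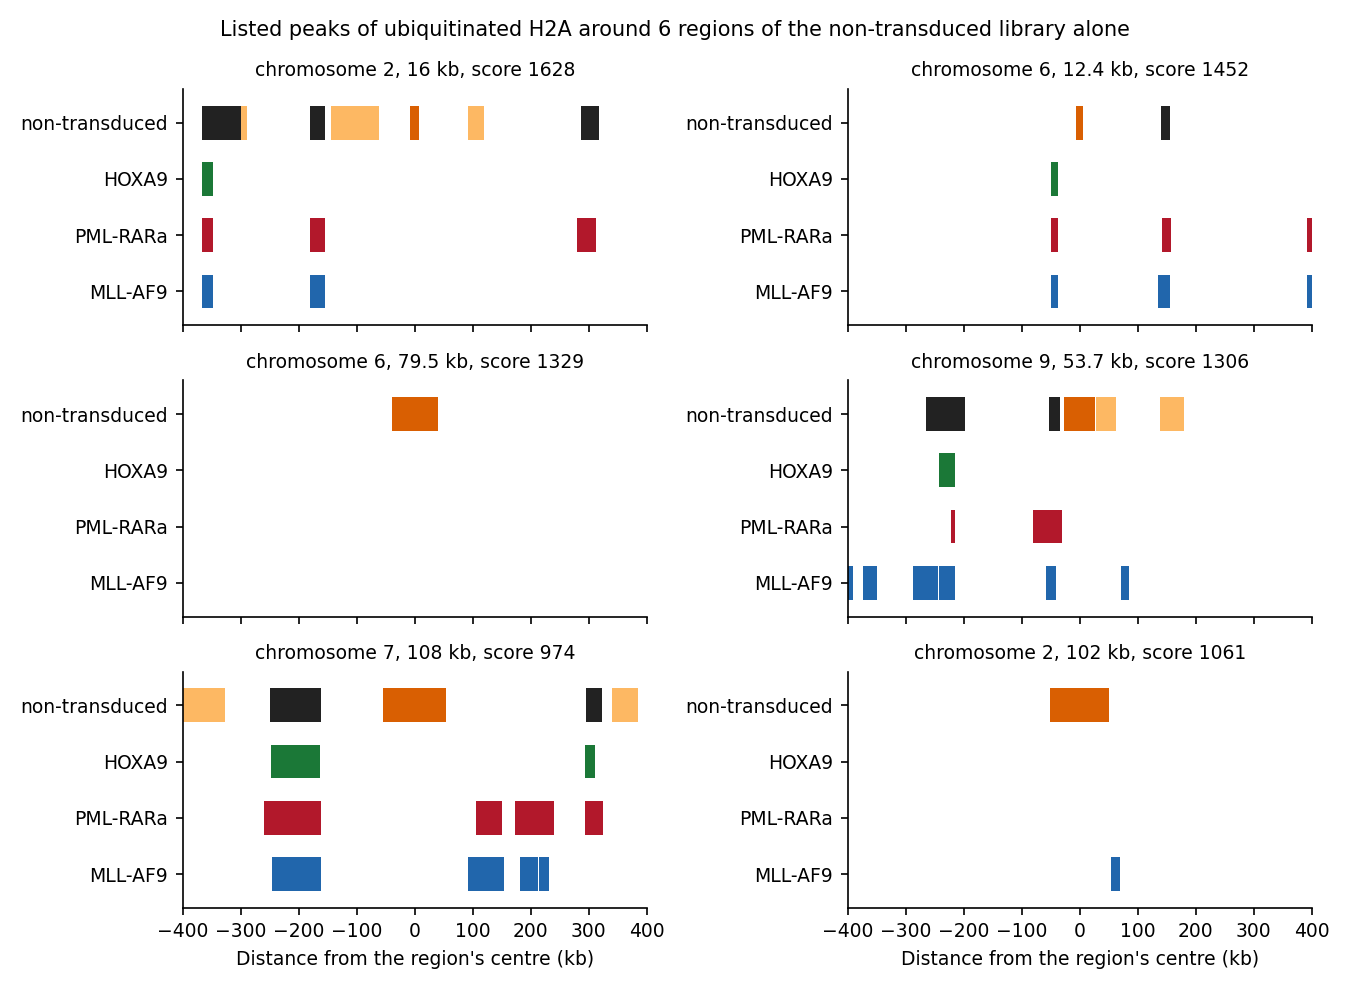
Listed peaks of the 4 libraries around 6 of the regions, drawn to scale by distance (kb) from the region's centre; the region is dark orange, other peaks of the non-transduced list alone are light orange and shared non-transduced peaks black. No oncogene-library peak appears within 400 kb of the region of 79.5 kb on chromosome 6, whereas around the region of 108 kb on chromosome 7 peaks of all 3 oncogene lists lie on both sides.

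By chromosome, 25 of the 65 non-transduced regions of chromosome 1 stood alone (38.5%, interval 26.7 to 51.4) and 5 of the 52 of chromosome 19 (9.62%, 3.20 to 21.0). These were the highest and the lowest share of the autosomes, and the only 2 of 20 chromosomes whose interval did not include the overall 24.2%. The extremes were picked from 20 unadjusted intervals, so the contrast is a description. Next to chromosome 1 came chromosome 16 (11 of 31, 35.5%), chromosome 6 (20 of 57, 35.1%) and chromosome 9 (26 of 83, 31.3%). The largest numbers were on chromosome 2 (31 regions, 767 kb) and chromosome 11 (30 regions, 666 kb), and the largest covered length on chromosome 7 (27 regions, 920 kb). These chromosomes had many non-transduced regions (125, 141 and 114). The shares alone were 24.8%, 21.3% and 23.7%, close to the overall 24.2%. Scores differed by chromosome as well. The median score of the non-transduced peaks was 902 on chromosome 1 and 944 on chromosome 19, against 928 for the whole list. The lowest median, 871, was that of chromosome 18, where 18.5% of the regions stood alone. A relation of score and share over chromosomes was not tested.

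On chromosome 1 the PML-RARa list had 68 peaks, MLL-AF9 56 and HOXA9 21, beside 65 non-transduced ones. On chromosome 19 there were 69, 58 and 21 beside 53. Of the chromosome 1 regions 47.7% lacked a PML-RARa peak and 52.3% an MLL-AF9 peak, against 26.9% and 25.0% on chromosome 19, while HOXA9 peaks were missing about equally (73.8% and 69.2%). The contrast was thus larger in both fusion oncogene lists than in HOXA9, again without a test. When each list was limited to its best 620 peaks, 10 of 25 chromosome 1 peaks and 4 of 27 chromosome 19 peaks stood alone (40.0% and 14.8%), against 31.9% of all non-transduced peaks in that setting. With the upper 75% of each list the shares were 31.2% (15 of 48) and 16.2% (6 of 37), against 24.6% overall. With whole lists the overall share of peaks was 23.2%, so chromosome 1 lay nearer to the whole in both settings. With the upper 50% of each list it had 41.4%, against 31.4% overall. The distance of chromosome 1 from the whole changed little with the upper 50% of the non-transduced list and whole other lists (27.6% against 13.1%). The same held without HOXA9 (40.0% against 24.5%). Chromosome 1 was above the whole in every setting run.

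**Figure D5:**
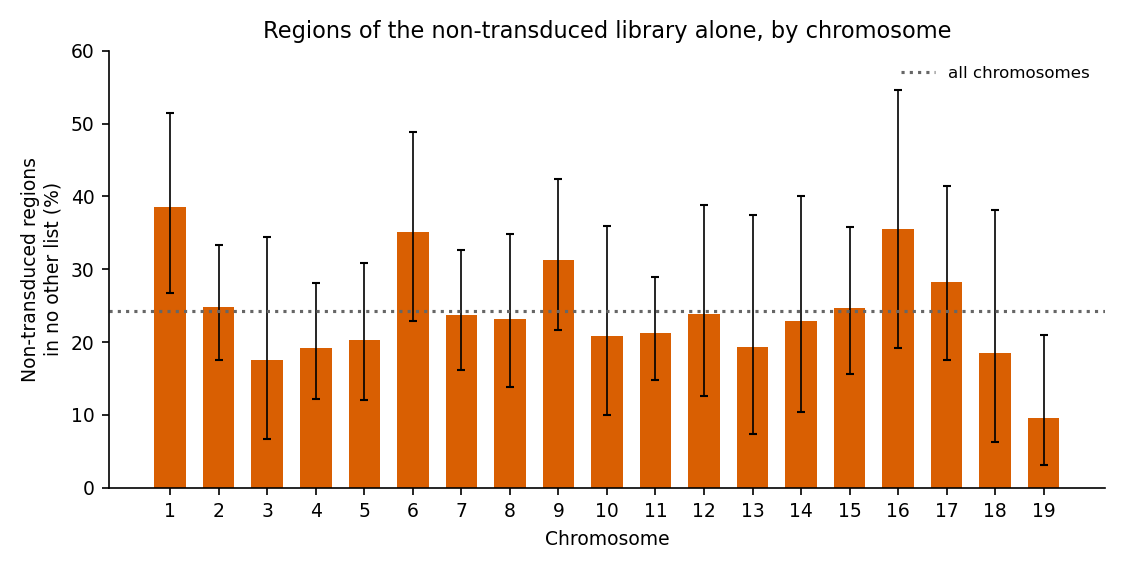
Percentage of the non-transduced regions of each autosome that had no peak of another list (bars, with exact 95% binomial intervals) and the percentage over all chromosomes (dotted line, 24.2%). Chromosome 1 is highest at 38.5% and chromosome 19 lowest at 9.62%; the X chromosome, with 2 regions, is not drawn.

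The peak names allowed a further check of absence from the lists. They carry a running number along the chromosomes, and 308 (HOXA9), 352 (PML-RARa) and 402 (MLL-AF9) numbers were missing from the lists, so a numbered call could be unlisted only between listed peaks with a gap in their numbers. In the HOXA9 list no number was missing around 134 of the 309 regions (43.4%, 37.8 to 49.1). The PML-RARa list was unbroken around 192 (62.1%, 56.5 to 67.6) and the MLL-AF9 list around 165 (53.4%, 47.7 to 59.1). At 49 regions (15.9%, 12.0 to 20.4) this held in all 3 lists, and there no numbered call of any oncogene library had been left out. Signal too weak to be numbered would leave no gap, so this does not show that the mark was missing. At 29 regions all 3 lists had a gap in their numbers, each of which could lie anywhere between the flanking peaks. Among other non-transduced regions missing from the same list, the numbering was unbroken around 186 of 568 (32.7%, 28.9 to 36.8) for HOXA9, 71 of 155 (45.8%, 37.8 to 54.0) for PML-RARa and 85 of 237 (35.9%, 29.8 to 42.3) for MLL-AF9. The difference was not tested.

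The 49 regions with unbroken numbering and the other 260 had the same median score (839) and median widths of 15.5 and 16.0 kb. The 49 lay nearer to a listed oncogene-library peak, with a median distance of 40.9 kb against 69.7 kb, which was not tested. Numbers were counted between the flanking listed peaks, and a shorter stretch has less room for a gap. The distance is thus not independent of how the 49 were chosen. Their scores ended at 1118, at chr12:74645226-74652021 (6.80 kb), so none of the 10 highest scores of the 309 was among them. The widest region of all, chr7:151770085-151878385, was one of them, as were chr8:12881353-12966484 and chr13:69674509-69690131. At chr2:156599367-156615407, which had the highest score, the HOXA9 list missed 2 numbers between the flanking peaks, the PML-RARa list 1 and the MLL-AF9 list 3.

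Standing alone was not rare in the other lists. Of the regions with a PML-RARa peak 580 of 1712 (33.9%, 31.6 to 36.2) were in that list alone, of those with an MLL-AF9 peak 324 of 1349 (24.0%, 21.8 to 26.4) and of those with a HOXA9 peak 46 of 599 (7.68%, 5.68 to 10.1). The non-transduced 24.2% (21.9 to 26.7) was thus nearly that of MLL-AF9. The peaks listed alone were wider in the non-transduced library, with a median of 16.0 kb, against 11.4 kb for each fusion oncogene and 11.6 kb for HOXA9. The medians of shared peaks were nearer to each other: 19.4 kb in the non-transduced list, 19.0 kb for PML-RARa, 17.8 kb for HOXA9 and 16.1 kb for MLL-AF9. These lists are single libraries of unknown depth, and the differences were not tested.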

How the data were processed

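H2AK119Ub ChIP-seq peak lists of 4 libraries (1 non-transduced and 1 for each of HOXA9, PML-RARa and MLL-AF9) were analysed; the input was not analysed here. Per the submitters' processing notes, Bowtie and MACS2 were used with build mm9; their versions and settings, and whether the input served as control, are not given here. The deposited lists hold chromosome, start, end, name and a score per peak; the score is the authors' own value, of unstated scale, and was used only within its list.

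Positions are printed counting from 1. Peaks were merged where they overlapped or touched, and distances are the bases between nearest ends. Shares have exact (Clopper-Pearson) 95% intervals and medians exact order-statistic 95% intervals. The 4 classes by score or width split ties by list order. No test was made, since each group had 1 library. Depth is unknown. The regions, and the rules for naming them (15 highest and 5 lowest scores, 5 widest, narrowest, nearest and farthest, largest groups with ties, 5 just outside; other ties by position), were chosen with earlier results of these data known; the 10 close pairs, and 3 regions with unbroken numbering, were named after their values were seen. The planned gene counts were left out for want of an mm9 annotation in use here. Interval code was tested on simulated data. Tools were Python 3.11.15, pandas 2.3.3, numpy 2.4.6, matplotlib 3.10.9 and scipy 1.17.1.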

Additional observations from a re-analysis of the deposited data

How the results depend on the processing

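The number of regions standing alone stayed within 1.5 times of 309 except with the upper 50% of the non-transduced list against whole other lists (87), with the best 620 peaks of each list (198) and without the PML-RARa list (499). The first 2 use fewer non-transduced peaks: 87 and 71 of the 309 were still listed, and 127 of the 198 were peaks that had a partner in the whole lists. With the upper 50% of each list 209 stood alone, of which 87 were among the 309 and 122 were not. The median width left its interval when a peak counted as shared only from 50% coverage (18.2 kb) and with the best 620 peaks (18.4 kb). The median score became 928 with the upper 75% of each list, 1022 with the upper 50%, 1006 with the upper 50% of the non-transduced list, 1022 with the best 620 peaks and 851 without PML-RARa; lists cut by score raise it by construction. The median distance to another list became 94.6 kb when peaks up to 5000 bp apart were merged, 38.8 kb with 50% coverage, 86.5 kb and 144 kb with the upper 75% and 50% of each list, 97.6 kb with the upper 50% of the non-transduced list, 167 kb with the best 620 peaks, 114 kb without PML-RARa and 91.1 kb without MLL-AF9. Merging within 1000 bp kept 290 of the 309 peaks alone and merging within 5000 bp 259. Widening each region by 10 kb left the share with unbroken numbering at 14.9%. The alternative on transcription starts was not run. The lists give no depth, so a weak domain and a missing one cannot be told apart.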

Other observations

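The scores of the 309 regions were not spread evenly. They took 113 different values, of which 54 occurred once, and 21 regions shared the value 766. The horizontal rows of points in the plot of width against score come from such repeated values, in the shared peaks as well. Ranks among the regions are tied to that extent, and 4 of the best 15 had the same score of 1118.

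No 2 peaks of the non-transduced list within 5 kb of each other were closer than 805 bp, and the median gap of the 112 such pairs was 1060 bp. Widths and counts of peaks therefore depend on whether such gaps are bridged. Joining peaks of all lists up to 5000 bp apart left 253 regions alone, made of 259 of the 309 peaks; the other peaks were then linked to a region with an oncogene-library peak.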
